A study of Mus musculus with 20 samples.

Results

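The glucocorticoid response genes described here are 10 genes: the receptors of corticosterone, the proteins that set how much hormone reaches them, and genes that they switch on in brain. They were chosen by name and not by a rule on their values, though with earlier results of these data known: Nr3c1, Nr3c2, Fkbp4, Hsd11b1, Fkbp5, Tsc22d3, Zbtb16, Sgk1, Nfkbia and Pdk4. They are 10 of the 20972 gene symbols on the array and are read by 11 probes, since Nr3c1 has 2. Each probe gave a value well above background on 20 of 20 arrays, and none was saturated.

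The study asked whether HIV-1 Tat changes the transcriptional response of the mouse brain to methamphetamine (Meth), and measured RNA of 20 male C57BL/6J mice, 1 array per mouse, in 4 groups of 5. Tat-/Sal mice (labelled Tat-Meth-) and Tat-/Meth mice (Tat-Meth+) carry only the Tet-binding protein under the astrocyte promoter GFAP, whereas Tat+/Sal mice (Tat+Meth-) and Tat+/Meth mice (Tat+Meth+) also carry Tat under the TRE promoter, so that doxycycline turns Tat on in astrocytes. All mice received doxycycline at 100 mg/kg, and either Meth at 2 mg/kg or 0.9% saline on 7 days. According to the methods, all 4 groups then also received 1 mg/kg Meth after 7 days of abstinence, and the caudate putamen was taken 1 h later from perfused mice aged 3 to 5 months; the labels instead give an age of 6 to 7 weeks, a left hemisphere and harvest 24 h after the last injection. The saline groups are therefore not free of Meth if the methods hold. Tat RNA itself was not analysed here.

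Corticosterone, the main glucocorticoid of the mouse, rises with stress, with the time of day and with stimulant drugs. Its receptor Nr3c1 waits in the cytoplasm in a complex with heat shock proteins and with the immunophilins Fkbp5 and Fkbp4, moves to the nucleus once it binds hormone, and there switches target genes on or off. Fkbp5 is itself a target and lowers the affinity of the receptor, which closes a short feedback loop. The transcripts of such targets follow the circulating hormone within hours and are widely used as a readout of it.

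In the canonical element, the receptor binds as a dimer to a palindrome with the letters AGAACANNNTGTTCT, in which each arm reads AGAACA on 1 of the strands. RefSeq promoter windows (GRCm38.p6, 250 bases before to 50 bases after a start site) were read for 8 of the 10 members, in 15 windows. None was read for Nr3c1 or Zbtb16. The full palindrome stood in 3 of 32851 windows of all genes (0.00913%), of which 1 belongs to Sgk1. An arm alone stood in 19% of all windows, and in 4 of the 15 windows of the members. These were 3 of the 6 windows of Sgk1 and 1 of the 3 of Tsc22d3, and the windows of the other members held none. For Sgk1 and Tsc22d3 a window with a match is shown. The letters GGGANTTTCC, as bound by NF-kB, stood on either strand in 0.411% of all windows, and among the members in that of Nfkbia. The 4 windows shown belong to members that rose and fell together between mice, with every match in capitals, and the window of Fkbp5 holds none. A match describes letters and not a bound site.
Sgk1 (chr10:21993640-21993939, plus strand): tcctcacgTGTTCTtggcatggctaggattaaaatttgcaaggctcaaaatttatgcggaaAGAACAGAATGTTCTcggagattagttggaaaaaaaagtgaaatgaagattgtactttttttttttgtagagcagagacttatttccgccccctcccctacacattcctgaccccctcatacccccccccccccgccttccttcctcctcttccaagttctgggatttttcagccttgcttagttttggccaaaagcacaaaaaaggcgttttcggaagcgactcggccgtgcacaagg
Tsc22d3 (chrX:140600473-140600772, minus strand): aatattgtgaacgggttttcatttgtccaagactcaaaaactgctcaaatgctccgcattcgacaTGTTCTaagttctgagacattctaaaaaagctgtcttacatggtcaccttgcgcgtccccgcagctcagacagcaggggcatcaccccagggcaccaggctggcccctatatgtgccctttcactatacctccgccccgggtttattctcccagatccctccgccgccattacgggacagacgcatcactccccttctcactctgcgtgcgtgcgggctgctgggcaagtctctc
Fkbp5 (chr17:28486100-28486399, minus strand): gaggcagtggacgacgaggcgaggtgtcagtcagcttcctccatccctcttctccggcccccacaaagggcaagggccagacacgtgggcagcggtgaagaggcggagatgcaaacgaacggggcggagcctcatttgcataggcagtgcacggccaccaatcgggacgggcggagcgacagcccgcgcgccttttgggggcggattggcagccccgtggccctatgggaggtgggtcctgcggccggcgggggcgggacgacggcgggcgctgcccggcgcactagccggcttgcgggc
Nfkbia (chr12:55492598-55492897, minus strand): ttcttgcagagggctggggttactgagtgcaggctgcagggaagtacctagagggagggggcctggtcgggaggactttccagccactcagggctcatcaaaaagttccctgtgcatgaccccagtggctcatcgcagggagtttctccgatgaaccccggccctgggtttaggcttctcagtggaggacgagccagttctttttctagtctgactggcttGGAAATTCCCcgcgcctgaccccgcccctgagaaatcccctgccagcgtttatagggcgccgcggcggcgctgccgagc

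None of the 10 members differed by more than 2-fold between any of the groups. At an adjusted p under 0.05, Pdk4 and Nr3c1 were higher in Tat-/Meth than in Tat-/Sal mice, where 35% of all genes were higher. Hsd11b1, Nr3c1, Sgk1 and Pdk4 were lower in Tat+/Meth than in Tat-/Meth mice, where 38.5% of all genes were lower. In these comparisons 6.85% and 7.22% of all genes also changed over 2-fold. Both hold the Tat-/Meth group, which was alone on its slide. The targets Fkbp5, Tsc22d3 and Zbtb16 did not pass in any comparison. These 3 targets instead varied between the mice of each group, and did so together. All levels are log2 of the background-subtracted signal after scaling every array by its own 75th percentile of signal, and levels of different genes are not comparable since each comes from its own probe.

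**Figure D1:**
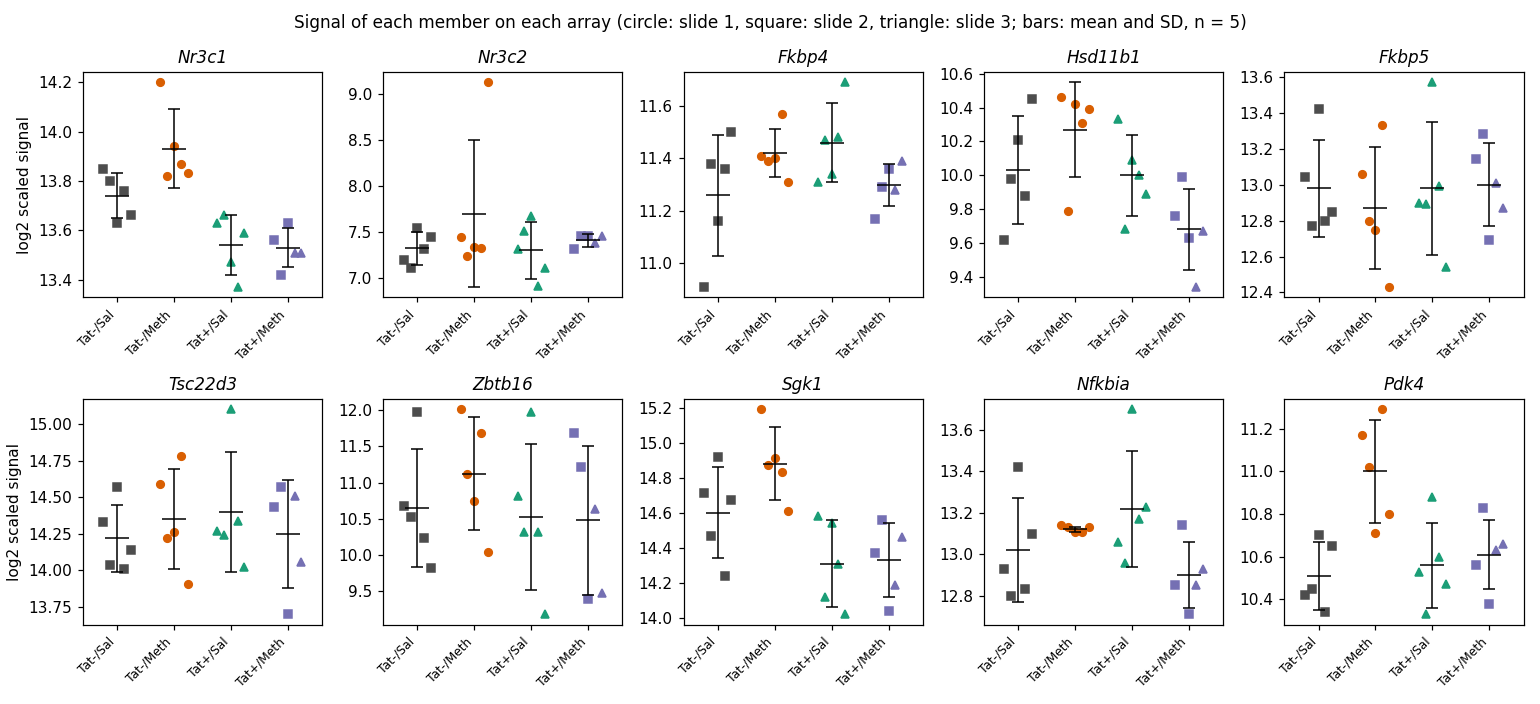
Log2 scaled signal of the 10 members (1 panel per gene, brightest probe) on each of the 20 arrays, by group; marker shape gives the slide, and bars give the mean and SD of 5 mice. Zbtb16 spans 2.79 log2 units among the Tat+/Sal mice, and the Tat-/Meth values of Pdk4 all lie above those of Tat-/Sal.

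The slides limit which comparisons can be read. Slide 1 carried the 5 Tat-/Meth arrays and no others. Slide 2 carried 5 Tat-/Sal and 3 Tat+/Meth arrays, and slide 3 carried 5 Tat+/Sal and 2 Tat+/Meth arrays. The bright corner control spots read 14.66 to 15.06 log2 units on slide 1 and 16.80 to 17.42 on the others. Any difference of the Tat-/Meth group from another therefore cannot be told apart from a difference between slides. The Tat-/Sal and Tat+/Sal arrays also shared no slide, so that their direct comparison lies between slides. Only the Tat+/Meth group had arrays on both of those slides. In the comparisons that hold the Tat-/Meth group a large share of all genes moved. Beside this, all 9 striatal neuron markers were well above background on 20 of 20 arrays, as were 3 of 5 choroid plexus markers, 3 of 3 red blood cell markers and 2 of 5 cortical neuron markers.

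The receptors come first. Nr3c1, the glucocorticoid receptor, is read by a bright and a dim probe. The bright probe gave 13.85, 13.80, 13.63, 13.76 and 13.66 in Tat-/Sal, 14.20, 13.82, 13.94, 13.87 and 13.83 in Tat-/Meth, 13.63, 13.66, 13.47, 13.37 and 13.59 in Tat+/Sal, and 13.56, 13.42, 13.63, 13.51 and 13.51 in Tat+/Meth mice. All 5 Tat+/Meth values lay below the lowest Tat-/Meth value, while the Tat-/Meth and Tat-/Sal values overlapped. The log2 difference of Tat+/Meth vs. Tat-/Meth was -0.40 ± 0.08 (SE, limma, 5 vs. 5 mice, adjusted p = 0.000199), and that of Tat-/Meth vs. Tat-/Sal was 0.19 ± 0.08 (limma, adjusted p = 0.0435). The median of all genes moved by -0.15 and 0.14 in these comparisons, so that Nr3c1 stood -0.25 and 0.05 from the typical gene. Without scaling the lower level in Tat+/Meth mice was -0.07 (limma, adjusted p = 0.735), where the median of all genes moved by 0.19. The rise in Tat-/Meth mice turned to -0.23 without scaling, where the median of all genes moved by -0.29, and missed the threshold without Tat-/Meth replicate 1 (0.12, adjusted p = 0.14) and without 5 other arrays.

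The dim probe of Nr3c1 averaged 8.90 ± 0.22 in Tat-/Sal, 9.04 ± 0.14 in Tat-/Meth, 8.69 ± 0.52 in Tat+/Sal and 8.88 ± 0.37 in Tat+/Meth mice (SD, n = 5 each). Tested with every probe on its own, it differed by -0.16 between Tat+/Meth and Tat-/Meth mice (limma, adjusted p = 0.525) and by 0.14 between Tat-/Meth and Tat-/Sal mice (limma, adjusted p = 0.587). Its signs were those of the bright probe in these comparisons, but the differences were within its spread.

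Nr3c2, the mineralocorticoid receptor, which binds corticosterone more tightly and is best known from hippocampus, had 7.32 ± 0.18 in Tat-/Sal, 7.70 ± 0.80 in Tat-/Meth, 7.30 ± 0.31 in Tat+/Sal and 7.41 ± 0.07 in Tat+/Meth mice (SD, n = 5 each). Its largest SD came from Tat-/Meth replicate 5, at 9.13, with the other 4 mice of the group between 7.24 and 7.45. On that array 70.87% of probes were well above background, the highest share of the 20 arrays. Nr3c2 passed in no comparison.

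The genes that set the access of the hormone were Fkbp4 and Hsd11b1. Fkbp4, the co-chaperone that helps carry the receptor to the nucleus, had a group mean of 11.26 in Tat-/Sal, 11.42 in Tat-/Meth, 11.46 in Tat+/Sal and 11.30 in Tat+/Meth mice, with SDs of 0.08 to 0.23, and passed in no comparison. Hsd11b1, the enzyme that regenerates active corticosterone inside cells, gave 9.62, 9.98, 10.21, 9.88 and 10.45 in Tat-/Sal, 10.46, 9.79, 10.42, 10.31 and 10.39 in Tat-/Meth, 10.33, 9.68, 10.09, 10.00 and 9.89 in Tat+/Sal, and 9.76, 9.99, 9.63, 9.34 and 9.67 in Tat+/Meth mice. It was lowest on average in Tat+/Meth mice, of which 4 of 5 lay below every Tat-/Meth mouse. The log2 difference of Tat+/Meth vs. Tat-/Meth was -0.60 ± 0.16 (SE, limma, adjusted p = 0.00457), or -0.45 from the median of all genes. Without scaling it was -0.26 (limma, adjusted p = 0.179), where the median of all genes moved by 0.19. Its probe is printed in 10 spots per array, which agreed within a median SD of 0.033 log2 units. That SD covers noise within an array only.

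Among the targets, Pdk4, a kinase that turns cells from glucose to fat oxidation, gave 10.42, 10.45, 10.70, 10.34 and 10.65 in Tat-/Sal, 11.17, 11.02, 10.71, 11.29 and 10.80 in Tat-/Meth, 10.53, 10.33, 10.88, 10.60 and 10.47 in Tat+/Sal, and 10.56, 10.83, 10.38, 10.63 and 10.66 in Tat+/Meth mice. Only among the Tat- mice were the Meth and saline values separate, with 10.71 as the lowest Tat-/Meth and 10.70 as the highest Tat-/Sal value. The log2 difference of Tat-/Meth vs. Tat-/Sal was 0.49 ± 0.12 (SE, limma, adjusted p = 0.00238), a 1.40-fold rise and 0.35 above the median of all genes. With Tat the same comparison gave 0.05 ± 0.12 (limma, adjusted p = 0.903), and the interaction, the effect of Meth in Tat+ less that in Tat- mice, was -0.44 ± 0.17 (limma, adjusted p = 0.0495). That interaction missed the threshold when any 1 of 14 of the 20 arrays was left out and under 10 of 12 other settings, and was 0.05 without scaling.

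Sgk1, a kinase that acts on ion channels and transporters, gave 14.71, 14.47, 14.92, 14.24 and 14.67 in Tat-/Sal, 15.19, 14.87, 14.91, 14.83 and 14.61 in Tat-/Meth, 14.58, 14.12, 14.54, 14.31 and 14.02 in Tat+/Sal, and 14.37, 14.56, 14.04, 14.19 and 14.46 in Tat+/Meth mice. All Tat+/Meth values were below all Tat-/Meth values, with a log2 difference of -0.55 ± 0.14 (SE, limma, adjusted p = 0.00278), or -0.40 from the median of all genes. Without scaling it was -0.21 (limma, adjusted p = 0.262), beside 0.19 for the median of all genes. Of 6 oligodendrocyte markers 3 were lower in the same comparison, and their summed signal was 264338 to 339315 in Tat-/Meth and 209814 to 269421 in Tat+/Meth mice. Of 6 astrocyte markers 4 were lower, where 38.5% of all genes were lower. In addition, 2 of 6 endothelial, 2 of 5 microglia and 2 of 9 striatal neuron markers were lower, and 1, 1 and 2 were higher. Their part in the result was not tested, and in such bulk tissue fewer cells of a type and less RNA per cell cannot be told apart.

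Nfkbia, the inhibitor that holds NF-kB in the cytoplasm, had 13.02 ± 0.25 in Tat-/Sal, 13.12 ± 0.01 in Tat-/Meth, 13.22 ± 0.28 in Tat+/Sal and 12.90 ± 0.16 in Tat+/Meth mice (SD, n = 5 each). The 5 Tat-/Meth mice lay between 13.11 and 13.14, whereas each of the other groups spanned 0.43 to 0.73 log2 units. It passed in no comparison.

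Fkbp5, the co-chaperone of the feedback loop, gave 13.04, 12.77, 13.42, 12.80 and 12.85 in Tat-/Sal, 13.06, 12.80, 12.75, 13.33 and 12.43 in Tat-/Meth, 12.90, 12.89, 13.57, 12.99 and 12.54 in Tat+/Sal, and 13.14, 13.28, 12.69, 13.01 and 12.87 in Tat+/Meth mice. The 4 group means differed by at most 0.13, and within groups the highest mouse was 1.51 to 2.05 times the lowest. The log2 difference of Tat-/Meth vs. Tat-/Sal was -0.10 with a 95% interval of -0.49 to 0.28 (limma, adjusted p = 0.663), and that of Tat+/Meth vs. Tat-/Meth was 0.13 with an interval of -0.26 to 0.51.

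Tsc22d3, also known as GILZ, which mediates anti-inflammatory actions of the hormone, gave 14.33, 14.04, 14.57, 14.01 and 14.14 in Tat-/Sal, 14.59, 14.22, 14.26, 14.78 and 13.91 in Tat-/Meth, 14.27, 14.24, 15.10, 14.34 and 14.02 in Tat+/Sal, and 14.43, 14.57, 13.70, 14.51 and 14.06 in Tat+/Meth mice. The groups overlapped throughout. Zbtb16, a zinc finger transcription factor, gave 10.67, 10.53, 11.98, 10.24 and 9.82 in Tat-/Sal, 12.01, 11.12, 10.74, 11.68 and 10.04 in Tat-/Meth, 10.81, 10.31, 11.98, 10.31 and 9.18 in Tat+/Sal, and 11.69, 11.21, 9.39, 10.64 and 9.48 in Tat+/Meth mice. Within groups the highest mouse had 3.91 to 6.93 times the Zbtb16 signal of the lowest. Its group means differed by up to 0.64 log2 units (Tat+/Meth vs. Tat-/Meth, 95% interval -1.77 to 0.50, limma, adjusted p = 0.331), an interval that spans more than 2-fold on the lower side.

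Counted over the list, 2 of 10 members passed as higher in Tat-/Meth vs. Tat-/Sal and none as lower, where 35% of the 15102 genes tested passed as higher and 50.2% in either direction. In Tat+/Meth vs. Tat-/Meth 4 of 10 passed as lower, against 38.5% of all genes, and 54.4% of all genes passed in either direction. For the interaction 1 of 10 passed, as lower, against 23.6% of all genes, and 36% in either direction. Each of these member counts was near or below the share of all genes. No member was called, that is, passed and changed over 2-fold, where 6.85%, 7.22% and 7.44% of all genes were called. The median difference of the members was 0.22, -0.34 and -0.30, and that of all genes 0.14, -0.15 and -0.14. The groups did not overlap for 1 member in Tat-/Meth vs. Tat-/Sal (36.2% of all genes) and for 2 in Tat+/Meth vs. Tat-/Meth (38% of all genes). These comparisons share the Tat-/Meth arrays and are not independent of each other.

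In the other 3 comparisons no member passed in limma. Tat+/Meth vs. Tat+/Sal had 0 passing genes of 15102 (0%) and 0 called (0%), Tat+/Sal vs. Tat-/Sal had 1.42% passing and 0.0199% called, and Tat+/Meth vs. Tat-/Sal had 0% and 0%. Tat+/Sal and Tat-/Sal mice shared no slide, and with slide as a fixed block 0 genes passed between them. At an unadjusted p under 0.05 in limma there were 1, 1 and 2 members, where 12.2%, 20.5% and 7.79% of all genes passed. By the methods' t-test without adjustment there were 0, 1 and 1, where 11%, 18.7% and 9.19% of all genes passed, and 0 members after adjustment. The member differences ran from -0.33 for Nfkbia to 0.11 in the first, from -0.29 for Sgk1 to 0.21 in the second and from -0.35 for Hsd11b1 to 0.10 in the third. The 95% intervals of these differences reached at most 1.14 log2 units to either side, the widest being that of Zbtb16. No member had groups that did not overlap, where 2.28%, 4.85% and 1.68% of all genes did. On slide 2 alone, the differences of 3 Tat+/Meth from 5 Tat-/Sal mice ran from -0.27 to 0.12, and on slide 3 alone those of 2 Tat+/Meth from 5 Tat+/Sal mice from -0.49 to 0.12.

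**Figure D2:**
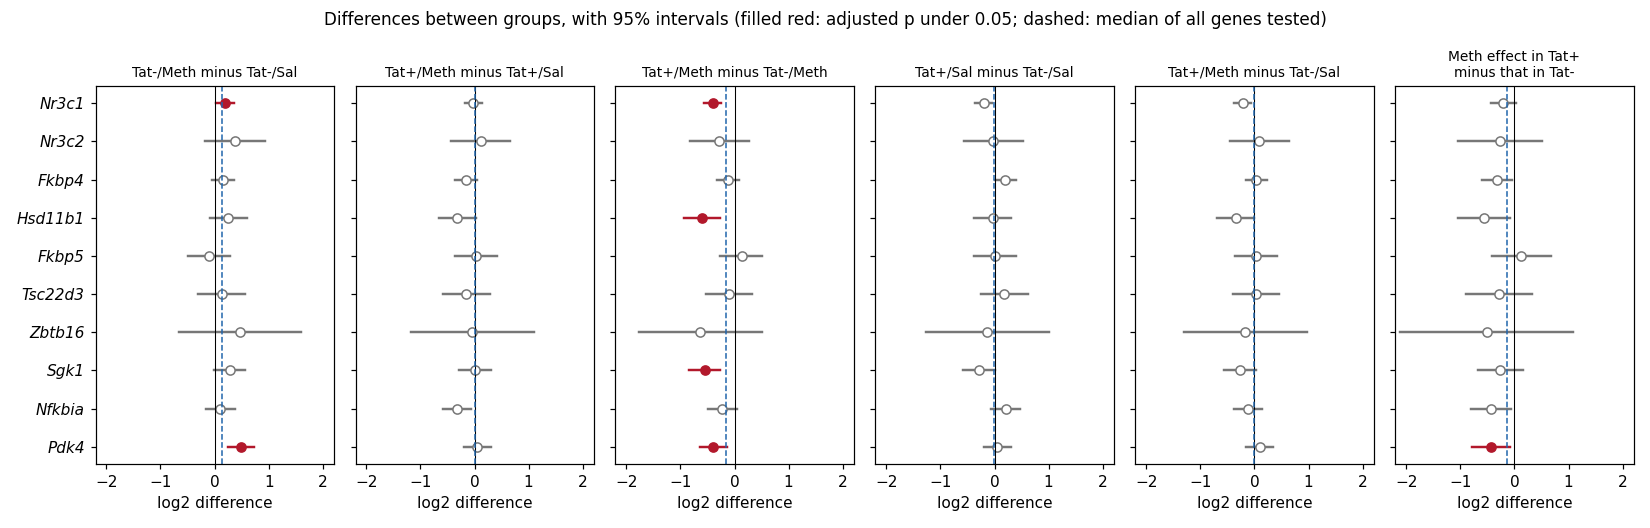
Log2 difference of each member (rows) in the 5 comparisons of groups and the interaction (panels), with 95% intervals from limma; filled red points have an adjusted p under 0.05, and the dashed line is the median of all genes tested. Red points occur in the panels that hold the Tat-/Meth group, and Zbtb16 has the widest intervals.

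The clearest pattern among the members lay between mice of the same group. Zbtb16, Fkbp5 and Tsc22d3 tended to be high or low in the same mice of a group, though the highest or lowest mouse was not always the same for all 3, and Pdk4, Sgk1 and Nfkbia followed them more loosely. No pair with a receptor, Fkbp4 or Hsd11b1 passed by Pearson's r. To measure this, each value was taken as its deviation from the mean of its group, and deviations were correlated over the 20 arrays, with p-values from 100000 shuffles of mice within groups and Benjamini-Hochberg adjustment over the 45 pairs of members.

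Tat-/Sal replicate 3 was the highest of its group for Fkbp5 (0.45 above the group mean), Tsc22d3 (0.35), Zbtb16 (1.33), Sgk1 (0.32), Nfkbia (0.40) and Pdk4 (0.19). Tat+/Sal replicate 3 was the highest of its group for Fkbp5 (0.59), Tsc22d3 (0.70), Zbtb16 (1.46), Nfkbia (0.47) and Pdk4 (0.31), while replicate 1 led for Sgk1. In the Tat-/Sal group the lowest mouse was replicate 2 for Fkbp5, replicate 4 for Tsc22d3 and replicate 5 for Zbtb16. In the Tat+/Meth group replicate 2 led for 5 of these 6 genes, replicate 1 led for Zbtb16 (1.21), and replicate 3 was the lowest for all 6, with Zbtb16 at -1.10 and Tsc22d3 at -0.55 from the group mean. In the Tat-/Meth group replicate 4 led for Fkbp5 (0.46), Tsc22d3 (0.43) and Pdk4 (0.29), replicate 1 led for Zbtb16 (0.89), and replicate 5 was the lowest for Fkbp5 (-0.44), Tsc22d3 (-0.44), Zbtb16 (-1.08) and Sgk1 (-0.27). The labels do not pair mice of different groups by replicate number.

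**Figure D3:**
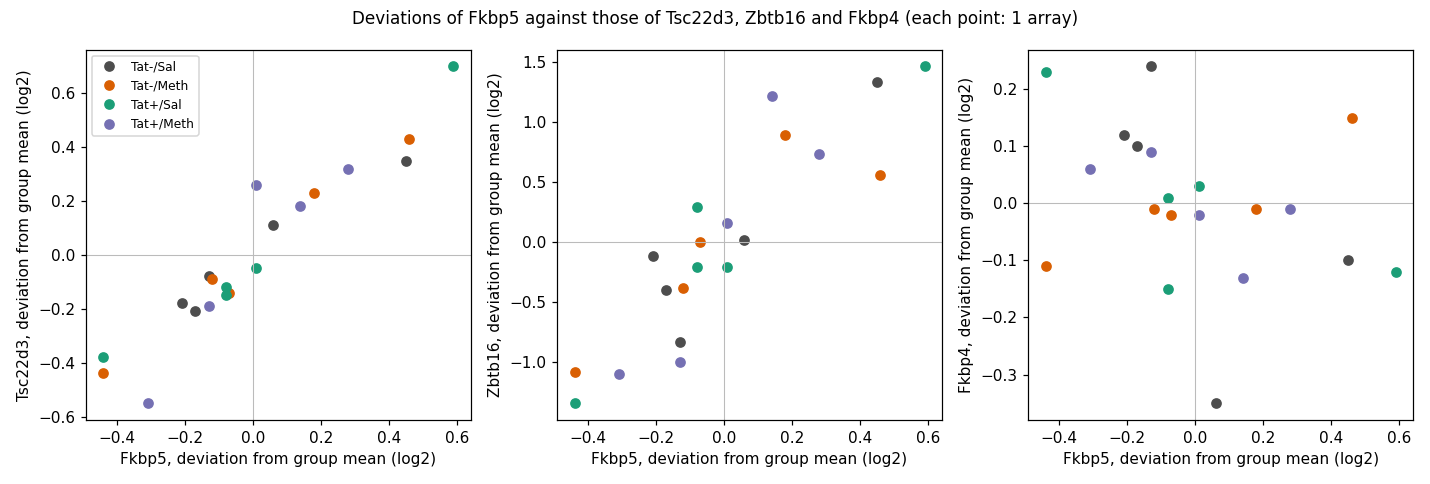
Deviation of each array from its group mean, in log2 units, for Fkbp5 (x axis) against Tsc22d3, Zbtb16 and Fkbp4 (y axes, 3 panels); each point is 1 of 20 arrays, coloured by group. Tsc22d3 and Zbtb16 rise with Fkbp5 in all 4 groups (r of 0.95 and 0.90 over the 20 arrays). Fkbp4 has r of -0.30 over the 20 arrays, with 0.93 in the Tat-/Meth group and -0.55 to -0.71 in the others.

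Fkbp5 and Tsc22d3 had a Pearson r of 0.95 and a Spearman rho of 0.95 (permutation p = 1e-05 for each, the smallest these shuffles can give, adjusted p = 0.000225). Within single groups of 5 the r was 0.98 in Tat-/Sal, 0.99 in Tat-/Meth, 0.98 in Tat+/Sal and 0.93 in Tat+/Meth mice. Without the 2 arrays farthest from the median of Fkbp5, Tat-/Meth replicate 4 and Tat+/Sal replicate 3, r was 0.92. Each of these genes was the other's closest of 15054 genes with a value on all arrays. Zbtb16 had r of 0.90 with Fkbp5 (rho 0.92, permutation p = 1e-05, adjusted p = 0.000225, r of 0.91 without 2 arrays) and 0.88 with Tsc22d3 (rho 0.88, permutation p = 2e-05, adjusted p = 0.0003, r of 0.86 without 2 arrays).

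Pdk4 had r of 0.79 with Fkbp5 (rho 0.73, permutation p = 0.00052, adjusted p = 0.0039) and 0.79 with Tsc22d3 (rho 0.75, permutation p = 0.00042, adjusted p = 0.00378), and 0.71 with Nfkbia (rho 0.70, permutation p = 0.0001, adjusted p = 0.00112). Without the 2 farthest arrays these were 0.64, 0.65 and 0.59. Sgk1 had r of 0.68 with Fkbp5, 0.67 with Zbtb16, 0.65 with Tsc22d3, 0.64 with Pdk4 and 0.59 with Nfkbia, with permutation p-values of 0.00265 to 0.0155 and adjusted p-values of 0.017 to 0.0499. For the 3 remaining pairs that passed, Fkbp5 and Nfkbia, Tsc22d3 and Nfkbia, and Zbtb16 and Pdk4, r was 0.65, 0.66 and 0.62, with adjusted permutation p-values of 0.0265, 0.0211 and 0.0265.

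In all, 14 of 45 pairs passed by Pearson's r, all positive and all within these 6 targets. By Spearman's rho 12 passed. These include Sgk1 with Hsd11b1 (rho 0.62, adjusted permutation p = 0.0372), a gene outside these targets. The 14 fell to 6 without Tat-/Sal replicate 3 and to 8 without Tat+/Meth replicate 3. The pairs Fkbp5 and Nfkbia, and Tsc22d3 and Nfkbia, had Spearman rho of 0.41 and 0.47 (adjusted permutation p = 0.194 and 0.123), and in the Tat-/Meth group, where Nfkbia hardly varied, r of -0.20 and -0.18. Among only the 15 arrays of the 3 groups off slide 1, a setting added after the data were seen, 11 of the 14 pairs passed, with r of 0.94 for Fkbp5 and Tsc22d3, 0.91 for Fkbp5 and Zbtb16, and 0.90 for Nfkbia and Pdk4. The 3 that missed were Sgk1 with Zbtb16 (r of 0.64, adjusted permutation p = 0.0531), Sgk1 with Nfkbia (0.66, 0.0503) and Zbtb16 with Pdk4 (0.56, 0.105).

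**Figure D4:**
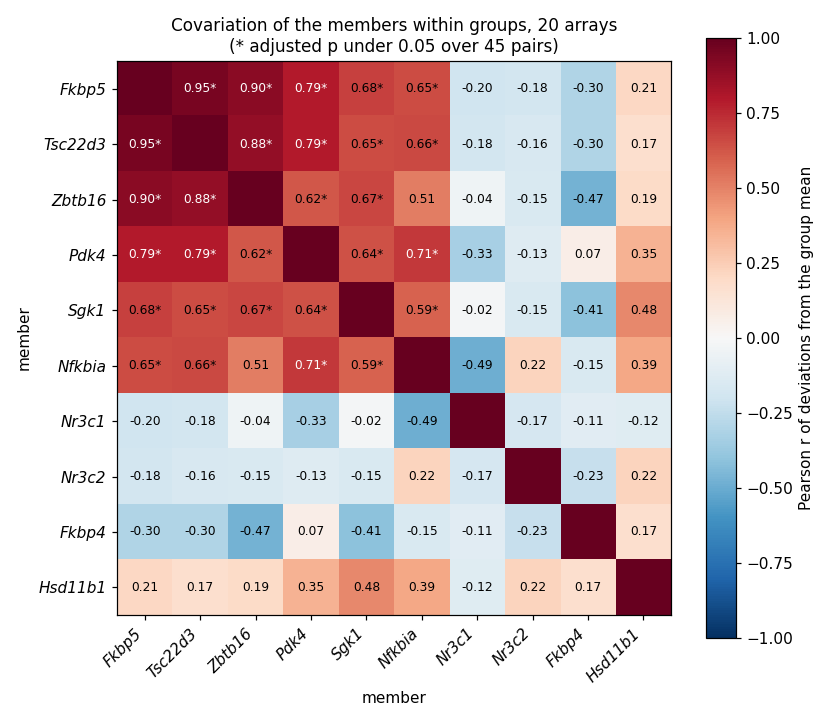
Pearson r between the members' deviations from their group means over 20 arrays (rows and columns are members, colour runs from -1 to 1, asterisks mark an adjusted p under 0.05 over 45 pairs). The 6 targets form a block with r of 0.51 to 0.95, in which only Zbtb16 with Nfkbia did not pass (0.51, adjusted permutation p = 0.121, r of 0.02 without 2 arrays). Nr3c1, Nr3c2, Fkbp4 and Hsd11b1 have no pair that passed. Nr3c1 with Nfkbia came closest (-0.49, adjusted permutation p = 0.0547, r of -0.85 without 2 arrays). With Pdk4 the r of Nr3c1 was -0.33, and -0.75 without the same 2 arrays.

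The spread behind these correlations differed between members. The SD within groups was 0.91 log2 units for Zbtb16, larger than for 99.3% of genes, and 0.34 for Tsc22d3 and 0.31 for Fkbp5, larger than for 86.4% and 83.1%. It was 0.23 for Sgk1, 0.21 for Nfkbia, 0.19 for Pdk4, 0.15 for Fkbp4 and 0.12 for the bright probe of Nr3c1, beside a median of 0.15 over all genes. The dim probe of Nr3c1 varied more, with SDs of 0.14 to 0.52 in the 4 groups. No array measure passed as related to Fkbp5. Over the 20 arrays, its deviations had r of -0.22 with those of the 75th percentile of signal (permutation p = 0.415), -0.23 with the share of probes well above background (permutation p = 0.365) and -0.36 with the bright corner spots (permutation p = 0.213), each with an adjusted p of 0.639 over 9 such relations.

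The deviations were also set against the mean of the markers of 12 cell types, 120 relations in all. Sgk1 went with the oligodendrocyte markers (r of 0.82, rho 0.83, permutation p = 2e-05, adjusted p = 0.0024, r of 0.83 without 2 arrays), and so did Nfkbia (r of 0.64, rho 0.65, permutation p = 0.00053, adjusted p = 0.0318, r of 0.51 without 2 arrays). No other relation passed. Fkbp5 had r of 0.52 with oligodendrocyte markers (rho 0.51, permutation p = 0.0235, adjusted p = 0.342), 0.19 with astrocyte markers and -0.05 with striatal neuron markers. The part of cell composition in the shared variation was not tested.

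The genes closest to each member, the 3 with the highest r over the 20 arrays, are given as a description. For Fkbp5 they were Tsc22d3 (r of 0.95), Smim3 (0.95) and Syne1 (0.93), and for Tsc22d3 they were Fkbp5 (0.95), Smim3 (0.91) and Aff1 (0.91). For Zbtb16 they were Rin2 (0.93), Zfp280c (0.91) and Plin4 (0.91), a lipid droplet protein. For Pdk4 they were Gpt2 (0.84), an aminotransferase, Mt2 (0.83), a metallothionein, and Fzd2 (0.83). For Sgk1 they were Adssl1 (0.91), Coro7 (0.90) and Ada (0.87), and for Nfkbia Ifngr1 (0.84), Nploc4 (0.80) and Ada (0.80).

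Outside the block, Fkbp4 went most closely with Stip1 (r of 0.94), a co-chaperone that links the heat shock proteins during receptor assembly, then with Dido1 (0.88) and Creld1 (0.86). Hsd11b1 went with Me2 (0.87), Cpne9 (0.86) and Padi2 (0.86), and Nr3c1 with Setd2 (0.90), Ddx31 (0.89) and Zmym3 (0.84). For Nr3c2 the closest were Gna15 (0.93), Fam199x (0.92) and Ccdc141 (0.92), and 203 genes exceeded an r of 0.8, against 63 for Fkbp5 and 2 for Nfkbia; the 1 high array of Nr3c2 enters all of these.

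Other genes of the pathway were read from lists fixed by name, though with earlier results of these data known. Of 30 other glucocorticoid-induced genes, all tested, 11 had an r above 0.6 with Fkbp5 (36.7%), against 2.65% of all genes, and their median r was 0.46 against -0.01. The highest were Plin4 (0.90), Hif3a (0.88), Arrdc2 (0.86), Sult1a1 (0.84), the gap junction gene Gjb6 (0.83) and the transcription factors Klf15 (0.83) and Klf9 (0.83), followed by the glucose transporter Slc2a1 (0.79), Mt2 (0.76), Gpd1 (0.73) and the phagocytic receptor Mertk (0.73). The clock gene Per1 had 0.40 and the stress gene Ddit4 0.42. The lowest of this list were Gadd45g (-0.45) and Dusp1 (-0.36). The other lists had medians of -0.16 to 0.22, with 1 of 14 chaperone genes (Cdc37, 0.64), 1 of 12 coregulators (Nrip1, 0.86), 1 of 19 paralogs (Tsc22d4, 0.68), and 0 of 8 genes of steroid metabolism and 0 of 6 of the hypothalamic pituitary axis above 0.6. The most negative r with Fkbp5 in these other lists were those of Pdk1 (-0.68), Crhr1 (-0.64) and Akr1c14 (-0.60). With Fkbp4, 1 of 14 chaperone genes exceeded 0.6, which was Stip1.

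**Figure D5:**
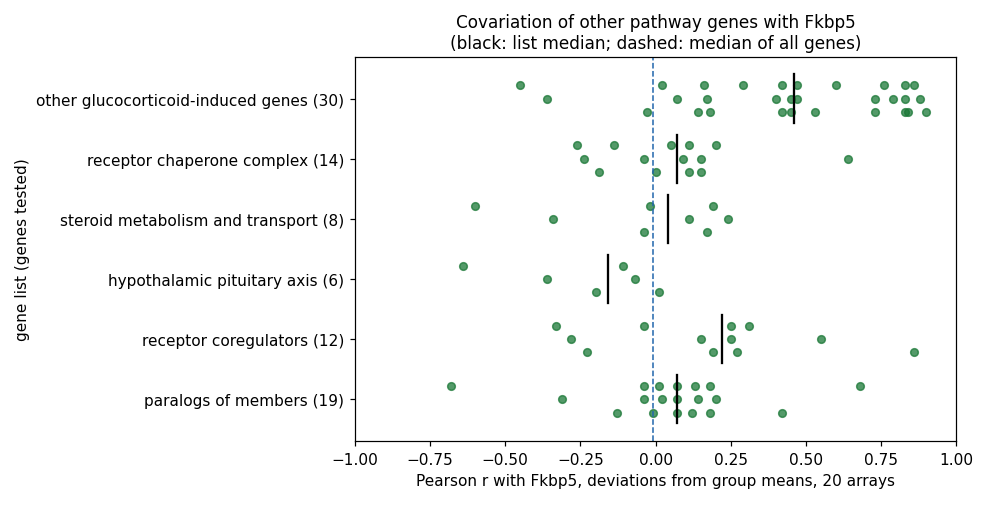
Pearson r with Fkbp5 over 20 arrays (x axis, deviations from group means) for the genes of 6 pathway lists (rows, number tested in brackets); each point is 1 gene, black bars are list medians and the dashed line is the median of all genes. The glucocorticoid-induced genes lie to the right, with a median of 0.46, and the other lists centre near 0.

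Between groups the pathway lists are read against all genes, of which 35% were higher and 15.3% lower in Tat-/Meth vs. Tat-/Sal, 16% higher and 38.5% lower in Tat+/Meth vs. Tat-/Meth, and 12.4% higher and 23.6% lower in the interaction. The same 30 induced genes showed 9 higher and 0 lower in the first, with a median of 0.29 against 0.14 for all genes, and 11 lower and 0 higher in the second, with a median of -0.25 against -0.15. Both counts were below the shares of all genes. Those with the largest change were the kinase Pim3 (0.82 and -0.66), Slc2a1 (0.55 and -0.61), the transcription factor Cebpb (0.50, first comparison) and Ddit4 (-0.80, second comparison). None was called in these, and in the interaction 5 were lower, with Ddit4 called at -1.06 ± 0.37 (SE, limma, adjusted p = 0.0315), beside Pim3 at -0.84 and Cebpb at -0.43. In the comparisons that leave out the Tat-/Meth group 0 of 30 passed.

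Of 14 chaperone genes tested, 5 were higher and 3 lower in Tat-/Meth vs. Tat-/Sal, and 3 were higher and 8 lower in Tat+/Meth vs. Tat-/Meth, where 50.2% and 54.4% of all genes passed in either direction. Hspa8, the constitutive heat shock protein that loads the receptor, was called in these, at -1.12 ± 0.07 and 1.20 ± 0.07 (SE, limma, adjusted p = 6.27e-10 and 2.33e-10), and in the interaction at 1.12. Stip1 went the other way, at 0.42, -0.47 and -0.62, as did Dnajb1 at -0.45 in the second. The phosphatase Ppp5c was at -0.39 in the first. Stub1, a ubiquitin ligase, was 0.28 ± 0.07 higher in Tat+/Sal than in Tat-/Sal mice (limma, adjusted p = 0.042). It was at -0.59 in the interaction, and was the only gene of these lists to pass without the Tat-/Meth group. The saline groups shared no slide, and 0 genes passed between them once slide was fitted as a fixed block. The count also fell to 0 when Tat+/Sal lost replicate 5 or Tat-/Sal lost replicate 1, but not with any other array dropped.

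Of 8 genes of steroid metabolism and transport tested, 2 were higher and 2 lower in Tat-/Meth vs. Tat-/Sal, and 1 was higher and 3 lower in Tat+/Meth vs. Tat-/Meth, near the 50.2% and 54.4% of all genes that passed in either direction. Cyp11a1, which makes pregnenolone, was called at -1.16 ± 0.16 and 1.0 ± 0.16 (SE, limma, adjusted p = 9.3e-06 and 3.74e-05), and was at 0.98 in the interaction. The reductase Srd5a1 was at 0.55, -0.75 and -0.55. Star was at -0.68 in the first comparison, Akr1c14 at -0.89 in the second, and Tspo at -0.45 in the interaction. Of 6 hypothalamic and pituitary genes tested, 0 passed in any comparison in limma.

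Of 12 coregulators 6 were higher and 2 lower in Tat-/Meth vs. Tat-/Sal, and 2 higher and 5 lower in Tat+/Meth vs. Tat-/Meth, with Med1 (0.55 and -0.47), Ncoa1 (0.42 and -0.44), Carm1 (0.43 in the first) and Ncoa2 (-0.42 in the second) leading and none called, beside 35% of all genes higher in the first and 38.5% lower in the second. In the interaction Med1 was at -0.55, Carm1 at -0.39 and Smarca4 at 0.31. Of 19 paralogs of the members 7 were higher and 3 lower in the first comparison, and 3 higher and 5 lower in the second, against the same shares of all genes. Zbtb7b was called at -2.10, 2.35 and 2.15 in the first, the second and the interaction, and Tsc22d2 at -1.17, 1.12 and 1.44, whereas their relatives Zbtb16 and Tsc22d3 did not pass. Sgk3, a relative of Sgk1, was at 0.42 and -0.46, and Zbtb7a at -0.61 in the interaction.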

How the data were processed

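Whole-genome 1-colour Agilent arrays were read in 20 samples. The authors deposited intensity values per spot, written by Agilent Feature Extraction 10.7.3.1 (per the file headers): a background-subtracted, detrended processed signal, median signals of spot and local background, and flags. The methods name another scanner and program. The value table of the series, also an intensity that the authors deposited, served as an alternative. Its log2 values correlated with the log2 processed signal at r of 0.985 to 0.993 per array.

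Outlier spots (4278) and control spots were left out, spots of a probe were averaged as log2, and arrays were scaled to their 75th percentile, which differed by up to 0.70 log2 units. Probes were named through RefSeq accessions (GRCm38.p6). A gene was read from its brightest probe and tested when 1 group mean reached 6, which left 15102 genes. limma 3.58.1 (R 4.3.3) fitted 1 mean per group over all 20 arrays with moderated variances and Benjamini-Hochberg adjustment. "Passed" means an adjusted p under 0.05, "called" also over 2-fold. The number of arrays limits the precision, and p-values measure the spread between mice as labelled. The code was tested on simulated data. Shuffles used numpy 2.4.6 (Python 3.11.15).

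The members, lists and tests were chosen with earlier results of these data known. All members, list genes that were called and the 3 genes closest to each member are named. So are up to 3 genes per list and comparison with the largest change among those that passed. The pathway genes with r above 0.6, Per1 and those given for a negative r were named after their values were seen. Alternatives covered scaling, background correction, filters, probe choice, slide, replicate number, thresholds, the methods' t-test and each array left out.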

Additional observations from a re-analysis of the deposited data

Results flagged for a closer look

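Hsd11b1 was at 9.79 log2 units in Tat-/Meth replicate 2, away from 10.31 to 10.46 in the other 4 mice of its group. Nr3c2 was at 9.13 in Tat-/Meth replicate 5, away from 7.24 to 7.45 in the other 4. Among 44 groups of 5 values (11 probes in 4 groups) 2 had such a distant value, and chance marks about 1 group in 20.

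The effect of Meth on Pdk4 differed between Tat+ and Tat- mice just under the threshold, with an interaction of -0.44 log2 units (limma, adjusted p = 0.0495). In the interaction 36% of all genes passed in either direction. That of Pdk4 missed the threshold when any 1 of 14 of the 20 arrays was left out and under 10 of 12 other settings. All Tat-/Meth arrays enter it, and they were alone on slide 1, so that slide and group cannot be told apart.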

How the results depend on the processing

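Over all settings and left-out arrays tried, no member was called in any comparison. In Tat-/Meth vs. Tat-/Sal the 2 members that passed became 1 (Pdk4) under quantile normalization, with no filter, with the mean over a gene's probes, with only the groups compared, with the methods' t-test after adjustment and at an adjusted p under 0.01, and with single arrays left out the count was 1 to 2. Nr3c1 also missed the threshold with median scaling (0.31, adjusted p = 0.192) and normexp (0.16, adjusted p = 0.0722), where the count stayed 2. The count was 1 without Tat-/Meth replicate 1 or 3, Tat-/Sal replicate 4 or 5, or Tat+/Meth replicate 1, and Nr3c1 was also lost without Tat-/Sal replicate 3, at 0.16. The median of all genes in this comparison moved from 0.14 to -0.29 without scaling and to 0.26 with median scaling. Without scaling Nr3c1 turned to -0.23, Pdk4 was at 0.06 (adjusted p = 0.682) and Fkbp5 passed at -0.52; with median scaling Fkbp5 turned to 0.02. The 4 members that passed between Tat+/Meth and Tat-/Meth mice became 0 without scaling and stayed 4 with any array left out, and Fkbp5 turned to -0.03 with median scaling. In Tat+/Meth vs. Tat+/Sal Fkbp5 turned to -0.09 with median scaling and to -0.04 with slide as a fixed block, from 0.02, and ranged from -0.09 to 0.17 with single arrays left out. In Tat+/Sal vs. Tat-/Sal 1 member passed with slide as a random block (Nr3c1, -0.20, adjusted p = 0.0336; -0.17, adjusted p = 0.875 with slide as a fixed block), a setting whose estimated correlation was -0.062 and in which 1084 genes were higher and 1242 lower against 214 in all without it, and 1 by the methods' t-test before adjustment, as did 1 in Tat+/Meth vs. Tat-/Sal by that t-test (Nr3c1, -0.22). For the interaction the count of 1 became 0 under quantile normalization, median scaling, no scaling, normexp, the series values, averaged probes, separately tested probes, no filter and an adjusted p under 0.01, became 4 with slide as a random block, and was 0 to 3 with single arrays left out. Pdk4 there turned to 0.05 without scaling and ranged from -0.36 to -0.51 with single arrays left out. The causes of these changes were not tested. Of the 27 settings and left-out arrays tried for the covariation, 6 of the 14 pairs passed in all, with r no lower than 0.61: Fkbp5 with Tsc22d3, Zbtb16 and Pdk4, Tsc22d3 with Zbtb16 and Pdk4, and Nfkbia with Pdk4. The count of pairs was 6 to 16 with single arrays left out, with the 6 without Tat-/Sal replicate 3 and 8 without Tat+/Meth replicate 3, and the pair of Sgk1 and Nfkbia missed the threshold in 19 of the 27.

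With the replicate number as a block, 2 members passed between Tat-/Meth and Tat-/Sal mice, 4 between Tat+/Meth and Tat-/Meth mice, 1 in the interaction and 0 elsewhere, but the interaction was Fkbp4 and not Pdk4 (-0.44, adjusted p = 0.0804). The labels give no pairing of mice by number. Deviations of same-numbered arrays of different groups correlated at -0.18 to 0.35, with a median of 0.04. For Zbtb16, replicate 5 lay below the group mean in Tat-/Sal (-0.83), Tat-/Meth (-1.08), Tat+/Sal (-1.34) and Tat+/Meth mice (-1.0). Fkbp5 and Tsc22d3 of replicate 5 were also below it in every group, whereas Sgk1, Nfkbia and Pdk4 were not. A shared order of the arrays was not tested.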
